A study of Rattus norvegicus with 36 samples.

Results

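Ccn1, Ccn2, Tnc and Tagln were followed in kidneys of male rats with ischemic or nephrotoxic acute renal failure. The 4 genes were chosen by symbol (older symbols Cyr61 for Ccn1 and Ctgf for Ccn2), with earlier results of the same arrays known, so their own values are given as a description with no test. They are 4 of 6444 genes with a symbol and are measured by 4 of 9911 probes, 1 probe each.

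The arrays were 1-colour CodeLink oligonucleotide arrays, 36 in all for 31 rats aged 6 to 8 weeks, with RNA taken from a portion of each kidney. The strain was not given in the sources used here. Ischemia was bilateral and lasted 40 min. The rats were studied after 8 h of reperfusion (3 rats), after 2 h with 50 µg of intravenous αMSH, short for alpha melanocyte stimulating hormone and a peptide that dampens inflammation, (3 rats), or after 2 h with no αMSH (4 rats). Mercuric chloride at 4 mg/kg was given subcutaneously and studied at 8 h or 2 h (3 rats each). Cisplatin at 20 mg/kg was given intraperitoneally and studied at 2 h (3 rats). Sham rats had 40 min of surgery and were studied at 8 h (3 rats). Volume-depleted rats received the loop diuretic furosemide, 20 mg/kg at the outset and again at 8 h, and a sodium-deficient diet, and were studied at 24 h (4 rats). Untreated normal rats numbered 5. The groups hold neither rats given αMSH without ischemia nor sham rats at 2 h.

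CCN1 and CCN2, the proteins of Ccn1 and Ccn2, are matricellular proteins: they are secreted into the extracellular matrix, bind integrins and heparan sulfate proteoglycans, and signal to cells rather than build structure. Both genes are classical targets of YAP/TAZ with TEAD and of serum response factor (SRF), and Ccn2 is a standard TGF-beta response gene that is followed as a marker of kidney fibrosis. Tnc encodes tenascin-C, a large matrix glycoprotein that appears in embryonic and wounded tissue. Tagln encodes transgelin, an actin-binding protein of smooth muscle whose promoter is a model for SRF binding to CArG boxes.

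The genes lie on 4 chromosomes of the rat assembly GRCr8, Ccn1 at chr2:237222730-237225689, Ccn2 at chr1:22621498-22624614, Tnc at chr5:82391340-82476197 and Tagln at chr8:55121647-55127121. The Tnc probe was designed on an expressed sequence tag and is tied to Tnc by the array annotation. The 250 bases before the annotated start are shown for the 3 matricellular genes. Ccn1 and Ccn2, known targets of TEAD, share some of the searched motifs there. No promoter entry was available for Tagln, so its window was not searched. For Tnc the start in the sequence table lies inside the interval given above, and its window and distances are counted from that start. The sequences are RefSeq's, all on the minus strand, at chr2:237225690-237225939 for Ccn1, chr1:22624615-22624864 for Ccn2 and chr5:82476132-82476381 for Tnc. Capitals mark the TEAD core GGAATG, the SMAD element CAGACA or TATAAA, the letters of a TATA box, wherever they occur in the window. The AP-1 element TGANTCA and the CArG box were searched too. The search covered both strands, except for TATAAA, which was sought on the gene's strand.
Ccn1: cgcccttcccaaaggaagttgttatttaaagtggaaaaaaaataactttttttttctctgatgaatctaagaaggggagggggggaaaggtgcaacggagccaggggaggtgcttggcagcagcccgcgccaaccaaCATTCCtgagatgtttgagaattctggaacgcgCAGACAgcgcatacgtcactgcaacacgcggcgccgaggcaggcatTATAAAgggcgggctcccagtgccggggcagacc
Ccn2: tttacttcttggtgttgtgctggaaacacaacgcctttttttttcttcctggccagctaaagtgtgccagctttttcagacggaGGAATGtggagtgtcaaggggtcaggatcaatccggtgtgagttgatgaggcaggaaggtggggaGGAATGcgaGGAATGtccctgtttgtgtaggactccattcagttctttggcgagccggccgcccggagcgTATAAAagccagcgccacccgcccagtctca
Tnc: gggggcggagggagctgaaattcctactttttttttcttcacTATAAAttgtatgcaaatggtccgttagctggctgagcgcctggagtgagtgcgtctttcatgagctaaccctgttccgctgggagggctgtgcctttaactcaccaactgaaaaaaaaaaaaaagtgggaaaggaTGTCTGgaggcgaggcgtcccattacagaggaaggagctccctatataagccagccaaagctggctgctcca
The Ccn2 window held GGAATG 3 times, starting 166, 101 and 92 bases before the start, with no overlap between motifs. The Ccn1 window held it once, on the opposite strand (printed as CATTCC), 113 bases before the start, and the Tnc window did not hold it. GGAATG was in 11.8% of 27457 rat promoter windows of this length. CAGACA was in the Ccn1 window 80 bases before the start and in the Tnc window on the opposite strand (printed as TGTCTG) 72 bases before it, against 16.9% of all windows. TATAAA stood 34 bases before the start in Ccn1, 31 in Ccn2 and 208 in Tnc, and was in 8.38% of all windows. Other forms of a TATA box were not sought, and the letters tatataa near the end of the Tnc window are not marked. No window of the 3 held a CArG box (1.5% of all windows) or TGANTCA (6.36%). These matches describe the letters of the windows and do not show binding.

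Levels below are multiples of the array's median intensity, and each change is the log2 difference between a group and the normal rats of the same array lot, with the standard error (SE) from a limma fit over all 31 rats. All 4 probes were measured above the floor of 0.1 of the median in 31 of 31 rats. The arrays came from 2 lots. No label ties a rat to a lot. Normal rats 11 and 12 with the mercuric chloride 8 h, cisplatin and sham groups were taken as lot 2 (12 arrays), and normal rats 1 to 3 with all other groups as lot 1 (24 arrays). In this division 47 probes were missing on every array of lot 2 and on none of lot 1. The values of sham rat 3 sat 2 lines away from their probes. They were moved into line, which gave a correlation with the other arrays' median profile of 0.984, against 0.0652 as deposited. Markers of proximal tubule (sums of 43.4 to 115 over 4 genes) and of the later nephron and collecting duct (35.6 to 132 over 5 genes) were present in every rat. At 8 h of ischemia the proximal tubule sum was 43.4 to 72.7, against 97.4 to 115 in the normal rats of lot 1 (3 of 4 genes fell), and the later nephron sum was 35.6 to 55.2, against 76.2 to 119 (4 of 5 fell). At 8 h after mercuric chloride the proximal tubule sum was 54.8 to 66.0, against 91.7 and 91.9 in the normal rats of lot 2 (2 of 4 fell). The part of these shifts in the 8 h values of the 4 genes was not tested. In whole tissue, fewer cells of a type and less RNA per cell cannot be told apart.

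The normal rats of the lots differed in these genes more than in most others. Ccn2 stood at 3.21 and 3.35 in the normal rats of lot 2, against 9.62, 13.4 and 13.8 in those of lot 1, and Ccn1 at 0.257 and 0.324 in lot 2, against 1.14, 0.886 and 0.847 in lot 1. The difference, lot 2 minus lot 1, was -1.89 ± 0.31 (SE) for Ccn2 and -1.72 ± 0.32 for Ccn1, where only 10 and 13 of 9491 probes had a larger fall. It was -0.65 ± 0.19 for Tagln and -0.51 ± 0.22 for Tnc, while the median absolute difference of all probes was 0.19. Whether the rats or the arrays of the lots differed cannot be told apart. Changes in the mercuric chloride 8 h, cisplatin and sham groups are therefore relative to low normal levels from 2 rats, and levels are not compared between lots.

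**Figure D1:**
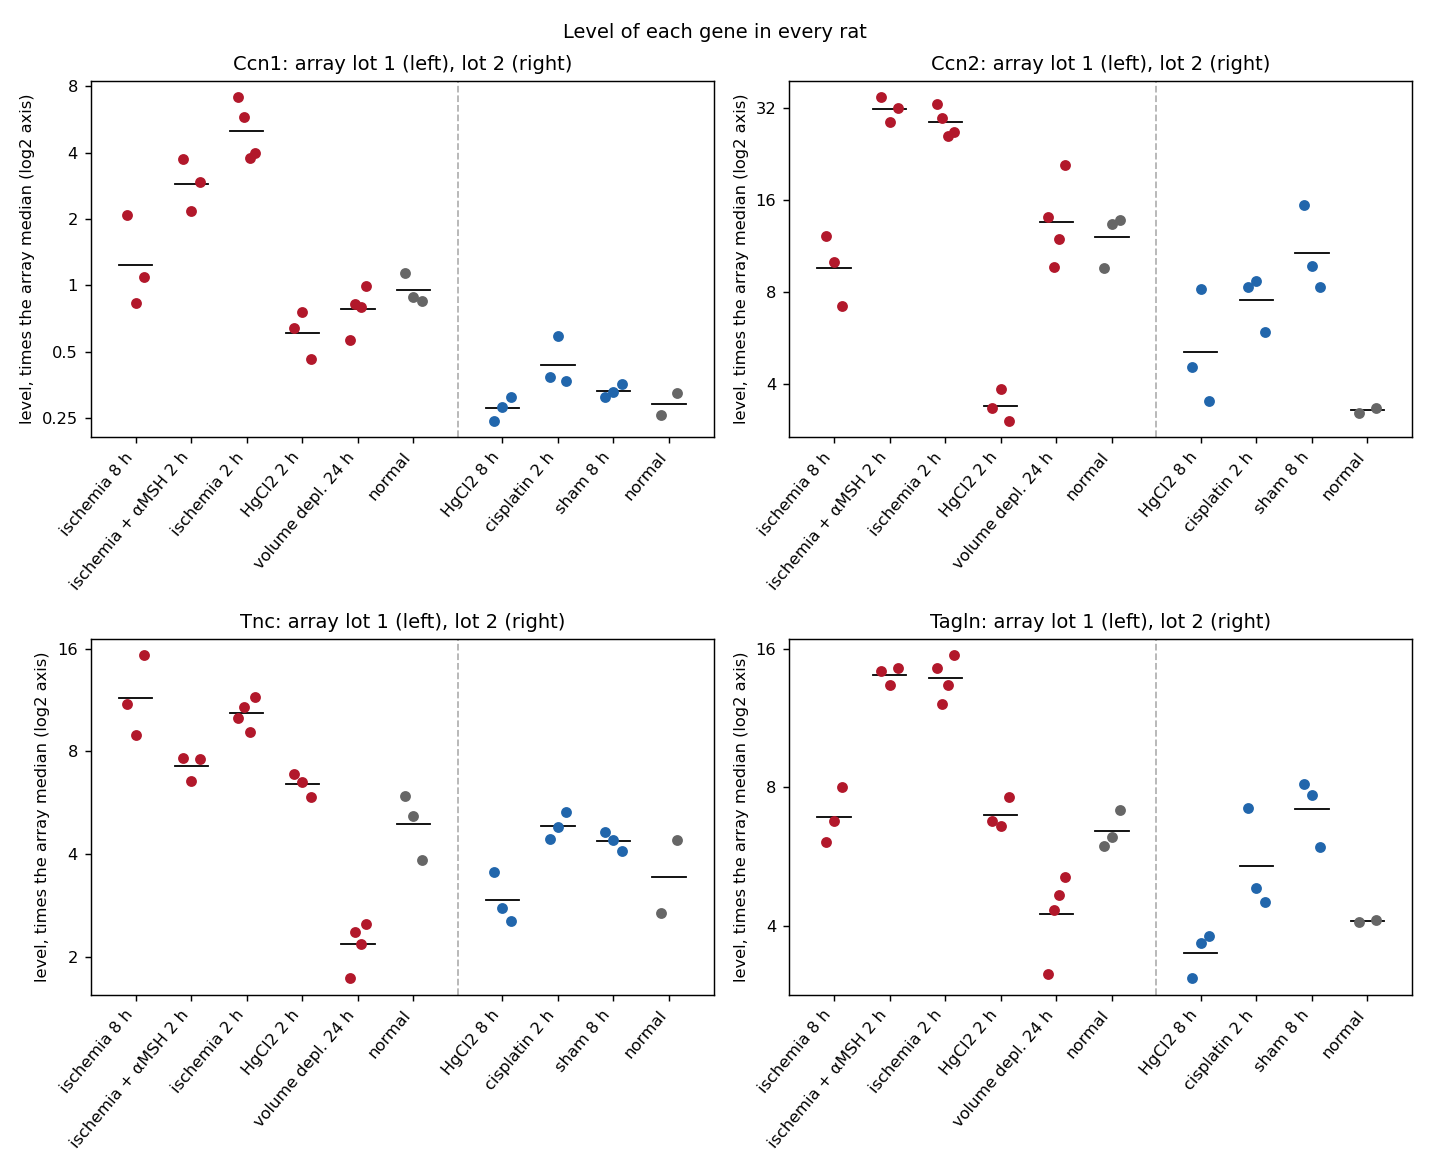
Level of Ccn1, Ccn2, Tnc and Tagln in every rat, in multiples of the array median on a log2 axis, with lot 1 left and lot 2 right of the dashed line. Each point is a rat and each bar the group's geometric mean, and the grey normal rats of lot 2 lie below those of lot 1 for Ccn1 (0.289 against 0.948) and Ccn2 (3.28 against 12.1).

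Ccn1 was the member with the largest change after ischemia at 2 h. After 2 h of reperfusion it was 5.27-fold above the normal rats of its lot (log2 change 2.40 ± 0.27), ranking 52nd among the rises of 9468 probes. After 8 h its level overlapped the normal rats again. Outside ischemia its changes lay between -0.64 and 0.60.

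In single rats, Ccn1 stood at 2.08, 0.828 and 1.10 after 8 h of ischemia, at 3.74, 2.17 and 2.94 after 2 h with αMSH and at 7.14, 5.80, 3.79 and 3.98 after 2 h without it, against 1.14, 0.886 and 0.847 in normal rats. All 7 rats studied at 2 h lay above all 3 normal rats, and at 8 h 1 rat lay above and 1 below them. The change at 8 h was 0.38 ± 0.29 and was 0.01 without rat 1, the rat at 2.08, and 0.67 without rat 2. Without αMSH the difference, 8 h minus 2 h, was -2.02 (95% interval -2.58 to -1.46). With αMSH the change from normal was 1.60 ± 0.29, a 3.04-fold higher level, and the difference from ischemia without it was -0.80 (95% interval -1.36 to -0.24). The 3 rats with αMSH lay below all 4 rats without it, but the nearest only just (3.74 against 3.79). Repeat arrays of the same rat differed by up to 0.498 for Ccn1 on the log2 scale.

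Outside ischemia the Ccn1 values lay closer to normal. At 2 h after mercuric chloride the rats had 0.641, 0.757 and 0.462, all below the 3 normal rats of lot 1, a change of -0.64 ± 0.29. In volume depletion they had 0.565, 0.821, 0.795 and 0.997, a change of -0.28 ± 0.27 with 3 of 4 rats below the normal rats. On the arrays of lot 2 the values were 0.243, 0.280 and 0.312 at 8 h after mercuric chloride, 0.384, 0.588 and 0.369 after cisplatin and 0.312, 0.329 and 0.358 in sham rats, against 0.257 and 0.324 in normal rats. These gave changes of -0.06 ± 0.32, 0.60 ± 0.32 and 0.20 ± 0.32. The 3 cisplatin rats lay above both normal rats, and the 95% interval of that change, -0.07 to 1.27, held 0. With all 5 normal rats and no lot term the direction turned in 4 groups, to 0.04 at 2 h after mercuric chloride, -0.43 after cisplatin, -0.83 in sham rats and 0.40 in volume depletion. In that setting the change was 1.07 at 8 h of ischemia and -1.09 at 8 h after mercuric chloride.

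In lot 1 the order of Ccn1 levels was ischemia 2 h, ischemia with αMSH, ischemia 8 h, normal, volume depletion and mercuric chloride 2 h. The neighbours from ischemia 8 h downward did not differ beyond their spread. In lot 2 the order was cisplatin, sham, normal and mercuric chloride 8 h, and no neighbours differed beyond their spread.

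Ccn2 was high after ischemia at 2 h with and without αMSH, low at 2 h after mercuric chloride, and above its low normal level in all 3 groups of lot 2. At 2 h of reperfusion it was 2.37-fold above normal (log2 change 1.25 ± 0.26) and with αMSH 2.62-fold (1.39 ± 0.28). In mercuric chloride rats at 2 h it was 3.57-fold lower than normal (-1.84 ± 0.28), the 7th largest fall among 9466 probes.

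After ischemia Ccn2 stood at 12.2, 10.1 and 7.23 at 8 h, at 34.8, 28.9 and 32.0 at 2 h with αMSH and at 33.0, 29.7, 25.98 and 26.8 at 2 h without it, against 9.62, 13.4 and 13.8 in normal rats. The 7 rats at 2 h all lay above the normal rats and the rats with and without αMSH overlapped, with a difference of 0.15 (95% interval -0.39 to 0.68). At 8 h the rats overlapped the normal rats, with a change of -0.34 ± 0.28. The difference of 8 h minus 2 h was -1.58 (95% interval -2.12 to -1.05).

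At 2 h after mercuric chloride the 3 rats had 3.35, 3.86 and 3.04, all below the 3 normal rats of lot 1. In volume depletion the rats had 14.1, 9.66, 12.0 and 20.8, a change of 0.16 ± 0.26. At 8 h after mercuric chloride the values were 4.56, 8.20 and 3.52, with rat 2 well above the others (the change was 0.29 without it), after cisplatin 8.35, 8.71 and 5.94 and in sham rats 15.4, 9.73 and 8.32, against 3.21 and 3.35 in normal rats of lot 2. Each of these 9 rats lay above both normal rats. The changes in all rats were 0.63 ± 0.31 after mercuric chloride, 1.20 ± 0.31 (2.30-fold) after cisplatin and 1.71 ± 0.31 (3.28-fold) after sham surgery, which ranked 21st among the rises of 9410 probes.

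The sham, cisplatin and mercuric chloride values of Ccn2 depend on which normal rats they are set against. With all 5 normal rats and no lot term the changes were 0.58 in sham rats, 0.07 after cisplatin and -0.50 at 8 h after mercuric chloride, and in lot 1 they were 0.42 at 8 h of ischemia (a turned direction), 2.15 at 2 h with αMSH, 2.00 at 2 h without it, -1.08 at 2 h after mercuric chloride and 0.92 in volume depletion. Within lot 2, where no choice of normal rats enters, Ccn2 was lower at 8 h after mercuric chloride than in sham rats by a difference of -1.08 (95% interval -1.65 to -0.51), and the rats did not overlap. In the lot 2 order of sham, cisplatin, mercuric chloride 8 h and normal, sham and cisplatin did not differ beyond their spread, and neither did mercuric chloride and normal. For cisplatin over mercuric chloride 8 h the 95% interval, 0.00068 to 1.14, only just left out 0. In lot 1 the order was ischemia with αMSH, ischemia 2 h, volume depletion, normal, ischemia 8 h and mercuric chloride 2 h. The neighbours there that differed beyond their spread were ischemia 2 h over volume depletion and ischemia 8 h over mercuric chloride 2 h.

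Tnc was as high at 8 h of reperfusion as at 2 h, unlike the other members, and was lowest in volume depletion, as was Tagln. At 8 h it was 2.34-fold above normal (1.23 ± 0.19) and at 2 h 2.11-fold (1.08 ± 0.18). In volume depletion it was 2.25-fold lower than normal (-1.17 ± 0.18), the 17th largest fall among 9466 probes. At 2 h with αMSH it was 1.48-fold higher than normal (0.57 ± 0.19).

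The rats of ischemia 8 h had 11.0, 8.91 and 15.3, those with αMSH 7.67, 6.56 and 7.58 and those of ischemia 2 h 10.1, 10.8, 9.12 and 11.6, against 5.91, 5.18 and 3.83 in normal rats. All 10 ischemia rats lay above the 3 normal rats. The array of ischemia 8 h rat 3, at 15.3, had the lowest median correlation with its group of all arrays (0.926). Without that rat the Tnc change at 8 h was 1.02. The difference of 8 h minus 2 h was 0.15 (95% interval -0.22 to 0.52). The αMSH rats lay below all 4 rats without it, with a difference of -0.51 (95% interval -0.88 to -0.14). The volume-depleted rats had 1.73, 2.37, 2.18 and 2.49, all below the normal rats. In mercuric chloride rats at 2 h the values were 6.88, 6.51 and 5.88, a change of 0.39 ± 0.19 with 2 of 3 rats above the normal rats.

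In lot 2 the normal rats of Tnc lay far apart, at 2.68 and 4.40, and changes there were small. The values were 3.55, 2.79 and 2.54 at 8 h after mercuric chloride, 4.42, 4.80 and 5.33 after cisplatin and 4.64, 4.40 and 4.09 in sham rats. The changes were -0.23 ± 0.22, 0.49 ± 0.22 and 0.35 ± 0.22. Without normal rat 12 the mercuric chloride change was 0.13 and without normal rat 11 the sham change was -0.01, so that the direction in both rested on 1 normal rat. With no lot term the changes were -0.54 after mercuric chloride, 0.19 after cisplatin and 0.04 in sham rats. Mercuric chloride at 8 h lay below sham by -0.58 (95% interval -0.98 to -0.18), and the 3 rats did not overlap the 3 sham rats. In lot 1 the order of levels was ischemia 8 h, ischemia 2 h, ischemia with αMSH, mercuric chloride 2 h, normal and volume depletion. Of those neighbours, ischemia 2 h over ischemia with αMSH and normal over volume depletion differed beyond their spread. The lot 2 order was cisplatin, sham, normal and mercuric chloride 8 h, with no neighbours beyond their spread.

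Tagln, the smooth muscle gene of the set, was 2.19-fold above normal at 2 h of ischemia with αMSH (1.13 ± 0.17) and 2.15-fold without it (1.11 ± 0.16). At 8 h it overlapped the normal rats (0.10 ± 0.17, and -0.0066 without rat 3). It was 1.75-fold above normal in sham rats (0.81 ± 0.19) and 1.52-fold lower in volume depletion (-0.60 ± 0.16).

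In ischemia the rats had 6.07, 6.74 and 8.00 at 8 h, 14.3, 13.4 and 14.5 at 2 h with αMSH and 14.5, 12.2, 13.3 and 15.5 at 2 h without it, against 5.95, 6.24 and 7.14 in normal rats. The 7 rats at 2 h formed a tight cluster well above all others of the lot, and the difference of ischemia with αMSH minus ischemia without it was 0.02 (95% interval -0.31 to 0.35). The difference of 8 h minus 2 h was -1.004 (95% interval -1.33 to -0.67). At 2 h after mercuric chloride the values were 6.75, 6.60 and 7.60, within or just above the normal range, a change of 0.12 ± 0.17. The volume-depleted rats, at 3.13, 4.34, 4.66 and 5.11, all lay below the normal rats.

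In lot 2 Tagln stood at 3.07, 3.67 and 3.79 at 8 h after mercuric chloride, at 7.20, 4.83 and 4.49 after cisplatin and at 8.11, 7.70 and 5.92 in sham rats, against 4.08 and 4.12 in normal rats. The mercuric chloride rats lay below and the cisplatin and sham rats above both normal rats. The changes were -0.23 ± 0.19 for mercuric chloride and 0.39 ± 0.19 for cisplatin, where 1 rat at 7.20 stood apart from the others. Against the sham rats, mercuric chloride at 8 h was lower by -1.04 (95% interval -1.39 to -0.68). With no lot term the changes were 0.36 at 8 h of ischemia, -0.62 and 0.38 at 8 h and 2 h after mercuric chloride, 0.01 after cisplatin, 0.42 in sham rats and -0.34 in volume depletion. With sham rat 3 read as deposited, out of line, the sham change was -0.67 for Tagln and 0.95 for Ccn1. The lot 1 order of levels was ischemia with αMSH, ischemia 2 h, mercuric chloride 2 h, ischemia 8 h, normal and volume depletion, in which ischemia 2 h over mercuric chloride 2 h and normal over volume depletion differed beyond their spread. In lot 2 the order was sham, cisplatin, normal and mercuric chloride 8 h, and normal did not differ from mercuric chloride beyond the spread. For cisplatin over normal the 95% interval, 1.4e-05 to 0.79, only just left out 0.

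**Figure D2:**
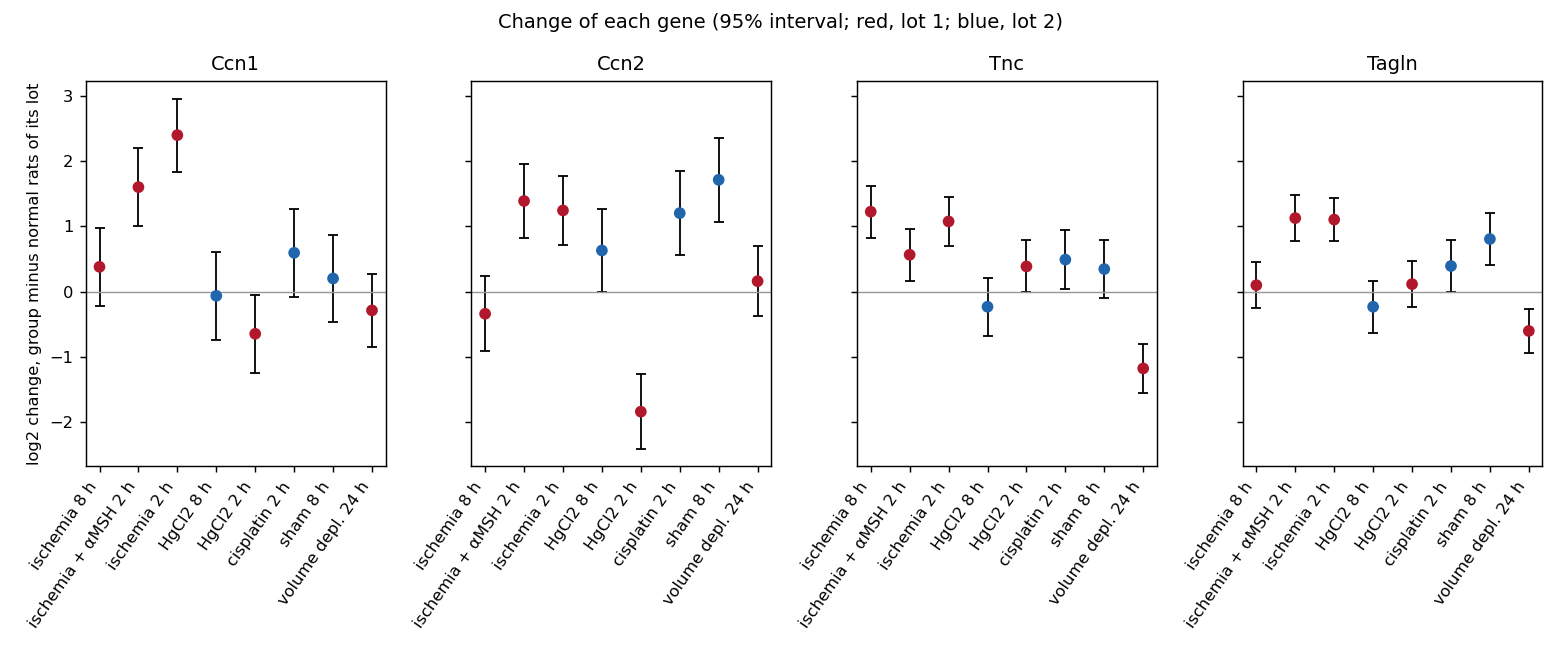
Log2 change of each gene in 8 groups, group minus normal rats of its lot, with the 95% interval of the limma fit. Red points are groups of lot 1 and blue points groups of lot 2. Ccn1 is highest in ischemia 2 h (2.40), Ccn2 lowest in mercuric chloride 2 h (-1.84) and Tnc lowest in volume depletion (-1.17).

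The ischemic and mercuric groups at 2 h, which share a lot, differed in every member. Ischemia minus mercuric chloride at 2 h was 3.04 (95% interval 2.48 to 3.60) for Ccn1 and 3.08 (2.55 to 3.62) for Ccn2. It was 0.69 (0.32 to 1.06) for Tnc and 0.99 (0.66 to 1.32) for Tagln, and the rats overlapped in none of the 4 genes. Ischemia at 8 h and sham surgery at 8 h lie in different lots, so that only their changes from normal can be set side by side. For Ccn2 the change was -0.34 after ischemia and 1.71 after sham surgery, a difference of -2.05 (95% interval -2.91 to -1.19), and for Tagln it was 0.10 and 0.81, a difference of -0.71 (-1.24 to -0.18). Tnc was the one member with the higher change after ischemia beyond the interval, at 1.23 against 0.35 (difference 0.88, 95% interval 0.28 to 1.48). These differences rest on the normal rats of each lot. With all 5 normal rats and no lot term, ischemia minus sham was 1.89 for Ccn1 (0.18 with it), -0.16 for Ccn2, 1.39 for Tnc and -0.06 for Tagln.

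Repeat arrays of 5 rats showed how far a single array can stray. On the log2 scale 2 arrays of the same rat differed by 0.080 to 0.498 for Ccn1 and 0.0012 to 0.356 for Ccn2. The difference was 0.043 to 0.284 for Tnc and 0.0088 to 0.188 for Tagln. The SD between rats of a group and lot was 0.38 for Ccn1, 0.36 for Ccn2, 0.24 for Tnc and 0.21 for Tagln on the log2 scale.

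Across the 26 treated rats, changes from normal of Ccn1 and Tagln had a Pearson r of 0.74, those of Tnc and Tagln 0.70, of Ccn1 and Ccn2 0.59, of Ccn1 and Tnc 0.57, of Ccn2 and Tagln 0.52 and of Ccn2 and Tnc 0.11. All points of a lot share their normal rats and the rats of a group share its treatment, so these values describe the groups. Among 5470 genes with values above the floor in at least 24 rats, those most like Ccn1 were Klf4, a zinc finger transcription factor (r = 0.90), Arc (0.89), the survival gene Mcl1 (0.86), Hspb7, a small heat shock protein (0.86), and Fos, a subunit of AP-1 (0.85). Most like Ccn2 were Slc28a2, a nucleoside transporter (0.87), the clock gene Per1 (0.85), Ceacam1 (0.80), Ackr3, an atypical chemokine receptor (0.79), and Tmod1, which caps actin filaments (0.78). Per1 changed by 1.62 in sham rats and -0.99 at 2 h after mercuric chloride. Most like Tnc were Flna, which crosslinks actin (0.91), Tpm2 (0.88), Crem, a cAMP-responsive transcription factor (0.87), Esam (0.86) and the scaffold gene Akap12 (0.85). Most like Tagln were Pdlim3, of the actin-bound LIM proteins (0.86), Tpm2 (0.86), Crispld2 (0.84), Tgfb1i1, a focal adhesion protein (0.83), and Baiap2 (0.83). By Spearman's rank correlation 1, 4, 1 and 3 of these 5 genes were again in the top 5 for Ccn1, Ccn2, Tnc and Tagln.

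**Figure D3:**
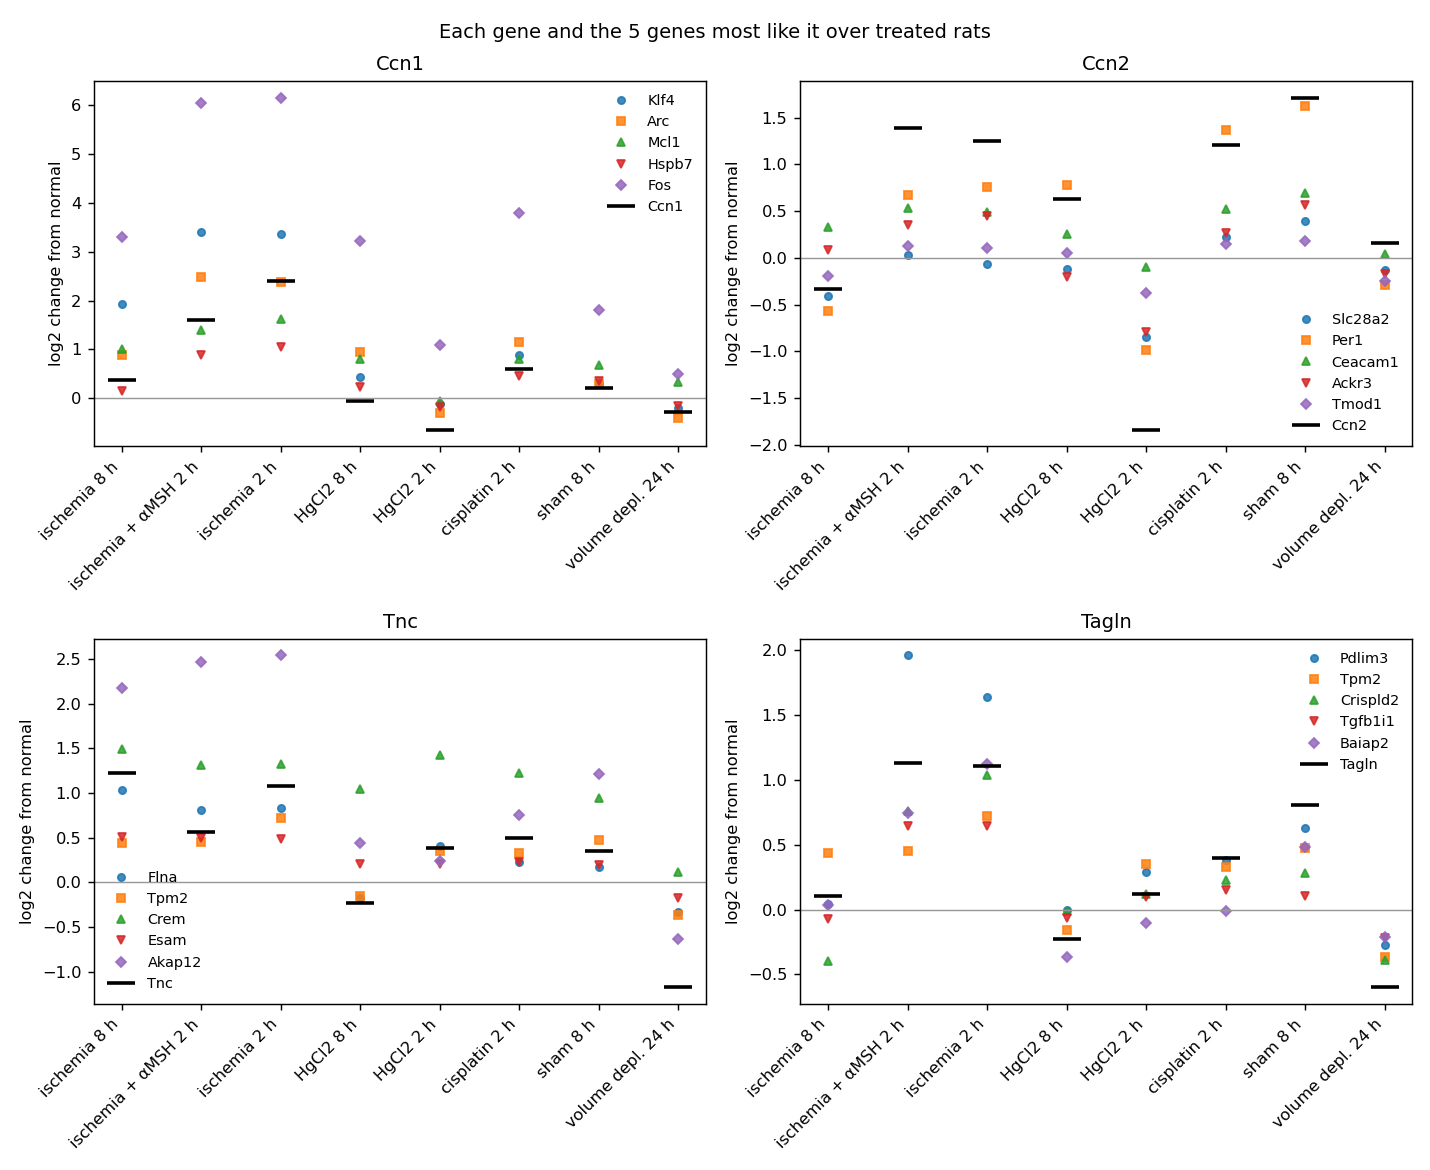
Log2 change from normal of each gene (black bar) and of the 5 genes with the highest correlation of changes with it over 26 treated rats (coloured markers), in 8 groups. Fos reaches 6.16 in ischemia 2 h beside 2.40 for Ccn1, and Per1 and Ccn2 are both lowest in mercuric chloride 2 h and highest in sham rats.

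Of the 4 members, every rat lay above all normal rats of the lot in 1 member after ischemia 8 h (Tnc), in 4 after ischemia with αMSH, in 4 after ischemia 2 h, in 1 at 8 h after mercuric chloride (Ccn2), in 4 after cisplatin and in 2 after sham surgery (Ccn2 and Tagln). Every rat lay below in 1 member at 8 h after mercuric chloride (Tagln), in 2 at 2 h after mercuric chloride (Ccn1 and Ccn2) and in 2 in volume depletion (Tnc and Tagln). As background, among all tested probes at a limma adjusted p under 0.05, 20.8% were called higher and 20.9% lower after ischemia 8 h, 6.69% and 6.61% after ischemia with αMSH, 7.36% and 7.37% after ischemia 2 h. After mercuric chloride 5.27% were called higher and 5.66% lower at 8 h, and 3.07% and 4.61% at 2 h. After cisplatin the shares were 0.532% and 0.0425%, in sham rats 0.298% and 0.0531% and in volume depletion 0.0739% and 0.0951%. The limma calls are a different and stricter measure than rats that do not overlap. The share of all probes without overlap was not computed, so the member counts cannot be set against these shares. The members were chosen on these contrasts, so nothing is read from their count. These shares moved by over 1.5 times with single rats in 6 of the 8 comparisons: the probes called after ischemia with αMSH numbered 784 without αMSH rat 1 and 790 without normal rat 1 (1255 in all), and those at 8 h after mercuric chloride 485 without normal rat 11 and 472 without normal rat 12 (1029 in all). In mercuric chloride rats at 2 h they numbered 370 and 418 without mercuric chloride rats 1 and 3, and 467 and 473 without normal rats 1 and 2 (727 in all). After cisplatin they numbered 141, 15 and 29 without cisplatin rats 1, 2 and 3, and 33 and 18 without normal rats 11 and 12 (54 in all). In sham rats they numbered 9, 17 and 14 without sham rats 1, 2 and 3, and 11 without normal rat 12 (33 in all), and in volume depletion 8 without rat 3, and 7, 8 and 10 without normal rats 1, 2 and 3 (16 in all).

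Other genes of the same pathways were taken from 5 lists, 75 genes with a probe of which 74 were tested. After ischemia at 8 h 31 of the 74 rose (41.9%) and 11 fell (14.9%), against 20.8% and 20.9% of all probes. At 2 h with αMSH 22 rose (29.7%) and 2 fell (2.7%), against 6.69% and 6.61%. At 2 h without it 20 rose (27.0%) and 2 fell (2.7%), against 7.36% and 7.37%. At 8 h after mercuric chloride 5 rose (6.8%) and 3 fell (4.1%), against 5.27% and 5.66% of all probes. At 2 h after it 4 rose (5.4%) and 2 fell (2.7%), against 3.07% and 4.61%. After cisplatin 1 rose (1.35%, against 0.532%), as did 1 after sham surgery (1.35%, against 0.298%). Limma called none in volume depletion, where 9 of the 74 had an unadjusted p under 0.05. The median log2 change of the 74 was 0.23 at 8 h of ischemia, against 0.01 over all probes, 0.22 at 2 h with αMSH, against -0.08, and 0.23 at 2 h without it, against -0.06. The counts in the mercuric chloride groups and after cisplatin moved with single rats. At 2 h after mercuric chloride the 6 called genes became 1, 3 and 1 without mercuric chloride rats 1, 2 and 3, and 1 and 3 without normal rats 2 and 3. At 8 h the 8 became 5 and 4 without mercuric chloride rats 1 and 2, and 2 and 3 without normal rats 11 and 12, and after cisplatin the 1 became 4 without cisplatin rat 1.

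Among 13 other matricellular genes, 3 rose and 3 fell at 8 h of ischemia, while 1 rose and 1 fell at 2 h both with αMSH and without it. These counts were near the shares of all probes. Those shares were 20.8% higher and 20.9% lower at 8 h, 6.69% and 6.61% with αMSH, and 7.36% and 7.37% at 2 h without it. Ccn3, another member of the CCN family, rose by 0.90 ± 0.22 (limma adjusted p = 0.0016) at 8 h of ischemia, by 0.97 ± 0.22 (0.00302) at 2 h with αMSH and by 0.71 ± 0.20 (0.0177) at 2 h without it. Spp1, which encodes osteopontin, rose at 8 h (1.47 ± 0.43, adjusted p = 0.0072). Ccn5, which stood at the floor in the normal rats of lot 1, rose there too (0.52 ± 0.19, adjusted p = 0.0291). With a floor of 0.25 in place of 0.1, 2 of the matricellular genes rose and 2 fell at 8 h. Thbs4, a thrombospondin, fell in 4 groups, by 1.04 at 8 h of ischemia and 0.47 at 2 h, and by 0.91 at 8 h and 0.77 at 2 h after mercuric chloride on the log2 scale. Fbln5, a fibulin of elastic fibers, fell at 8 h of ischemia (-1.57 ± 0.17, adjusted p = 4.77e-08) and at 2 h with αMSH (-0.56 ± 0.17, adjusted p = 0.0262), and Tnr, a tenascin of the nervous system, fell at 8 h (-0.50 ± 0.16, adjusted p = 0.0139). Dcn (decorin) rose at 8 h after mercuric chloride (0.69 ± 0.18, adjusted p = 0.0122). Sparc and Postn, which encode osteonectin and periostin, were called in no comparison, with changes of -0.08 and 0.74 at 8 h of ischemia. Thbs1 was not analysed here.

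Of 14 integrins and other receptors, which matricellular proteins bind, 6 rose and 2 fell at 8 h of ischemia, 3 rose and 1 fell at 2 h with αMSH, and 4 rose at 2 h without it. Over all probes 20.8% rose and 20.9% fell, 6.69% and 6.61%, and 7.36% and 7.37% in these ischemia groups. Itgav, the integrin alpha-v subunit that binds CCN proteins and tenascin-C, rose in all 3, by 1.47 ± 0.18 (adjusted p = 3.86e-07), 0.96 ± 0.18 (0.00051) and 0.89 ± 0.17 (0.000482). Its partner Itgb1 rose by 1.29 ± 0.11 at 8 h (adjusted p = 5.8e-10) and by 0.32 ± 0.10 at 2 h (0.0271). Anxa2 (2.36 ± 0.38) and the EGF receptor gene Egfr (1.77 ± 0.23) had the largest rises at 8 h. Itga1 rose in all 3 ischemia groups by 0.44, 0.35 and 0.51, and Cd47, a thrombospondin receptor, at 8 h (0.62 ± 0.19). Sdc2, a heparan sulfate proteoglycan, fell by 0.89 at 8 h of ischemia and by 0.53 at 8 h after mercuric chloride on the log2 scale. Ptprz1 fell by 0.43 at 8 h of ischemia, Lrp6 by 0.60 with αMSH and Itgam, a leukocyte integrin, by 0.45 at 2 h after mercuric chloride. Itgb3, Itgb6 and Itga5 were not analysed here.

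In the TGF-beta list of 23 genes, 10 rose and 2 fell at 8 h of ischemia, 8 rose at 2 h with αMSH, and 5 rose and 1 fell at 2 h without it. Over all probes 20.8% rose and 20.9% fell, 6.69% and 6.61%, and 7.36% and 7.37% in the same order. Tgif1, a SMAD corepressor, rose by 2.04, 2.05 and 2.20 in these groups and by 1.67 at 2 h after mercuric chloride. Klf10, a TGF-beta inducible zinc finger gene, rose by 1.58, 1.77 and 1.91, and was the one list gene called after cisplatin (1.43 ± 0.18, adjusted p = 0.000129) and sham surgery (1.21 ± 0.18, adjusted p = 0.00128) and had a change of 0.47 (adjusted p = 0.0965) at 8 h after mercuric chloride. Ccn2 stood above the low normal level of lot 2 in all 3 of these groups. It was also above normal at 2 h of ischemia with and without αMSH. At 8 h of ischemia, where Klf10 rose by 1.58, the Ccn2 change was -0.34. At 2 h after mercuric chloride Klf10 changed by 0.20 and Ccn2 by -1.84. With no lot term the Ccn2 change was 0.07 after cisplatin, 0.58 after sham surgery and -0.50 at 8 h after mercuric chloride. Id1 rose by 1.55, 2.26 and 1.78 in the 3 ischemia groups, and by 0.83 at 2 h after mercuric chloride. Among the ligands, Tgfb3 rose in all 3 ischemia groups (1.02, 1.23 and 1.20), Tgfb2 at 8 h (1.30 ± 0.34, adjusted p = 0.00311) and with αMSH at 2 h (1.01 ± 0.34, adjusted p = 0.0495), and Tgfb1 at 8 h (1.18 ± 0.14, adjusted p = 2.41e-07) with changes of -0.03 and -0.01 at 2 h with and without αMSH. The receptor gene Tgfbr1 was called in no comparison, with -0.05 at 8 h of ischemia. Smad1 rose with αMSH (1.10 ± 0.31). Fst, which encodes the activin antagonist follistatin, rose by 1.02 at 8 h and fell by 0.73 at 2 h on the log2 scale. Bmp4 fell by 0.46 at 8 h of ischemia on the log2 scale and rose by 0.49 at 2 h both with and without αMSH. At 8 h after mercuric chloride Bmp4 fell by 0.61, and Ltbp2 rose by 0.66. Acvr1 fell by 1.06 at 8 h of ischemia. Inhba was not analysed here.

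Of 11 SRF and YAP/TAZ factors and targets, 5 rose and 1 fell at 8 h of ischemia, 5 rose with αMSH and 4 rose at 2 h without it. Over all probes 20.8% rose and 20.9% fell, 6.69% and 6.61%, and 7.36% and 7.37% in the same order. Vcl (vinculin, an SRF target of focal adhesions) rose by 1.22 ± 0.17, 1.14 ± 0.17 and 0.96 ± 0.16 in these groups (adjusted p = 3.63e-06, 3.99e-05 and 0.000134). Wwtr1, which encodes TAZ itself, rose by 1.42, 0.71 and 0.83, and by 0.60 at 8 h after mercuric chloride. F3, the tissue factor gene, rose by 1.02, 0.88 and 1.05 in the ischemia groups, by 1.30 at 8 h and 0.76 at 2 h after mercuric chloride. Ptpn14, a negative regulator of YAP, rose at 2 h with (1.00 ± 0.19) and without αMSH (1.19 ± 0.18). Dlc1 rose with αMSH (0.62), and Ajuba (1.13) and Axl (1.11) rose at 8 h, where Nf2 fell by 0.30 on the log2 scale. Ccn1 and Ccn2, which belong to the same target set, overlapped the normal rats at that time. Srf, Ankrd1 and Amotl2 were not analysed here.

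Of 13 other smooth muscle contractile genes, 7 rose and 3 fell at 8 h of ischemia, 5 rose with αMSH and 6 at 2 h without it. Over all probes 20.8% rose and 20.9% fell, 6.69% and 6.61%, and 7.36% and 7.37% in the same order. The list's median change was 0.44, 0.59 and 0.67, against 0.01, -0.08 and -0.06 over all probes. The list is not limited to genes of smooth muscle, so its counts and median do not stand for smooth muscle cells alone. Flna, Csrp1, Tagln2 (transgelin-2, a relative of transgelin that many cell types make), Tpm4 and Actg2 (enteric smooth muscle actin) rose in all 3 ischemia groups. Flna rose by 1.03, 0.81 and 0.83 and Tagln2 by 1.06, 0.67 and 0.74. Csrp1, a LIM protein of smooth muscle, rose by 0.49, 0.84 and 1.03, and Tpm4 by 1.42, 0.45 and 0.67. Actg2 rose by 0.77 ± 0.12 at 8 h (adjusted p = 7.91e-06), 0.60 ± 0.12 with αMSH (0.000707) and 0.68 ± 0.11 at 2 h (6.56e-05). The marker of mature smooth muscle Myh11, a myosin heavy chain, was not called at 2 h, with changes of 0.20 with αMSH and 0.04 without it, and fell at 8 h (-0.60 ± 0.22, adjusted p = 0.0275), as did Fhl1 (-0.76 ± 0.21) and Csrp2 (-0.53 ± 0.12). Cnn1, which encodes calponin, was called in no comparison when all rats were fitted, with changes of 0.22 ± 0.59 at 8 h, 1.23 ± 0.59 with αMSH and 1.01 ± 0.55 at 2 h. Its level was 0.997 to 1.45 with αMSH and 0.804 to 1.45 without it at 2 h, against 0.440 to 0.602 in the normal rats of lot 1, so that all 7 rats lay above them. The spread of the fit held 1 sham rat with a Cnn1 level of 8.42. Without that rat, a setting chosen after seeing the data, Cnn1 rose at 2 h by 1.23 ± 0.22 with αMSH (limma adjusted p = 0.000393) and by 1.01 ± 0.20 without it (0.0013), and its change at 8 h was 0.22 ± 0.22 (0.454). Tpm1 and Tpm2, tropomyosins, rose at 8 h by 1.00 and 0.44, and Tpm2 by 0.72 at 2 h. Outside ischemia, Flna rose at 2 h (0.41 ± 0.12) and Tagln2 at 8 h (0.42 ± 0.13) after mercuric chloride. Acta2 and Des were not analysed here.

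**Figure D4:**
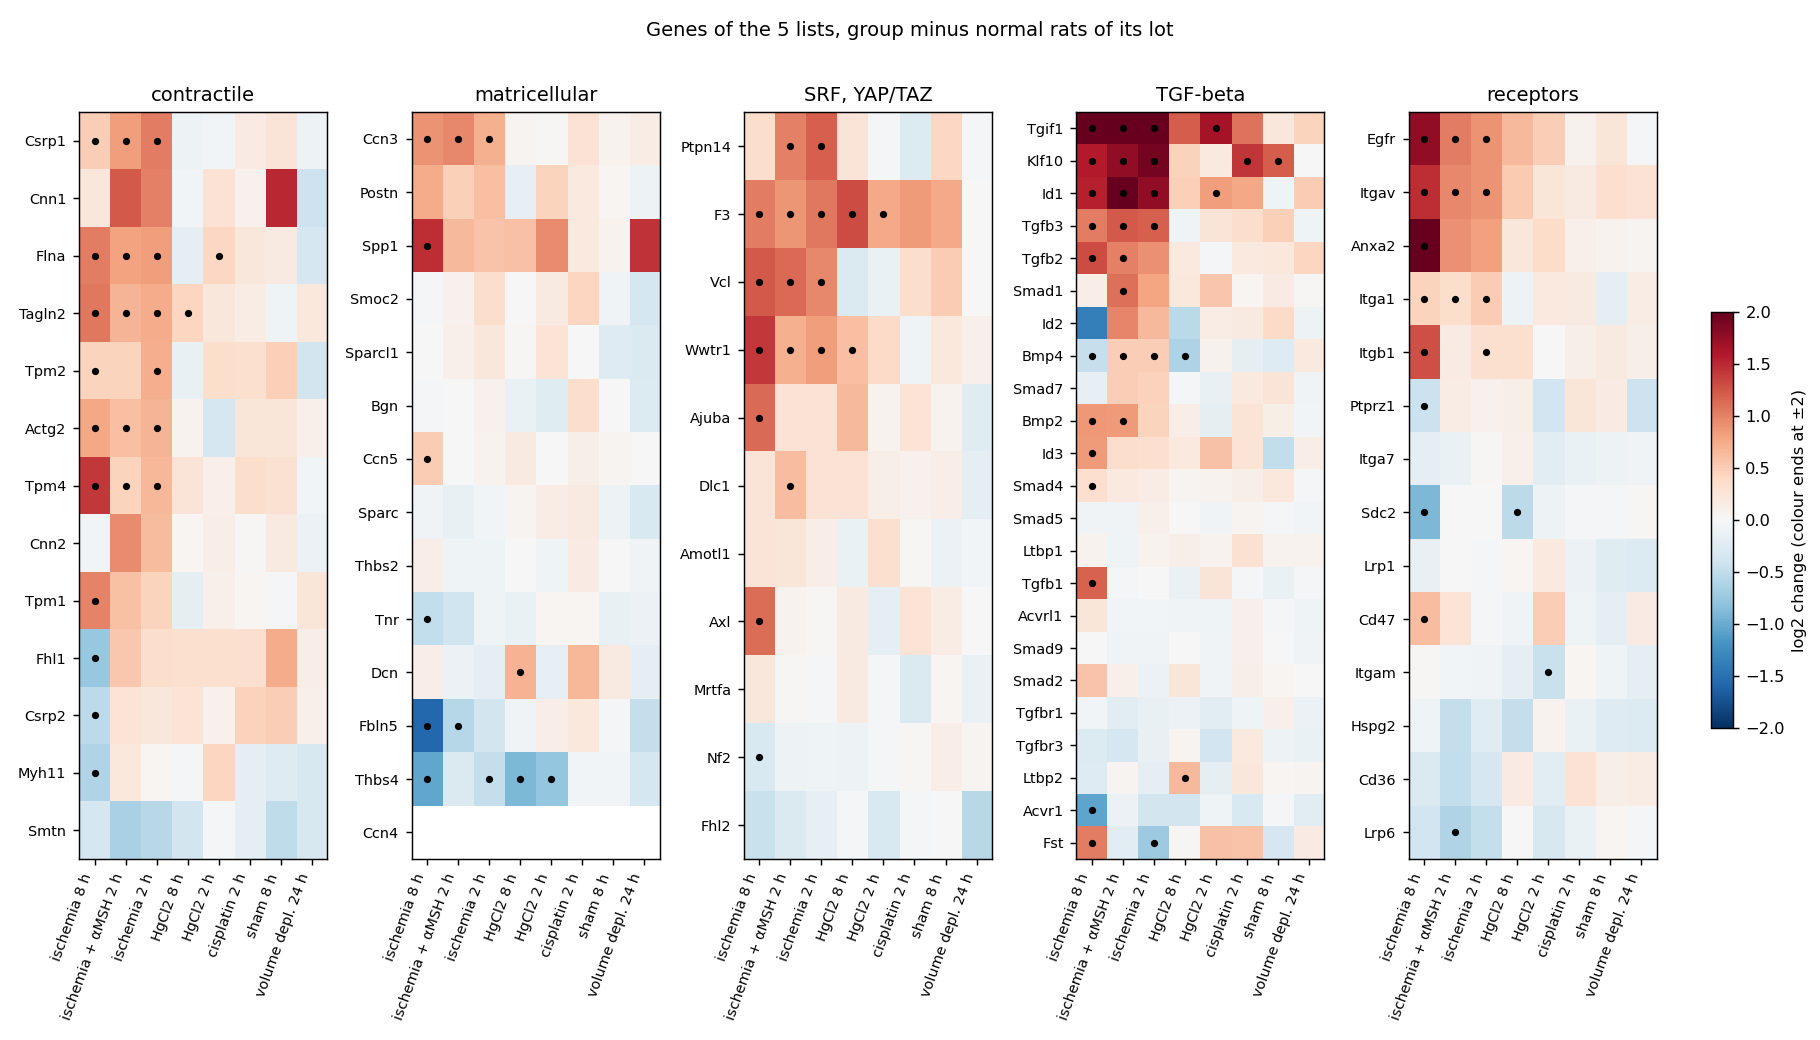
Log2 change of each gene of the 5 lists (rows) in 8 groups (columns), group minus normal rats of its lot, with colour ending at 2 in either direction. Black dots mark a limma adjusted p under 0.05 and blank cells were not tested. Dots gather in the 3 ischemia columns, as for Flna (1.03, 0.81 and 0.83), and Klf10 carries the only dots under cisplatin and sham surgery.

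Markers of smooth muscle and pericytes were set beside Tagln. Summed over 6 genes (Myh11, Cnn1, Pdgfrb, Rgs5, Cspg4 and Notch3) the level was 7.52 to 8.64 at 8 h of ischemia, 7.34 to 8.20 at 2 h with αMSH and 6.57 to 9.12 at 2 h without it, against 7.02 to 8.18 in the normal rats of lot 1. These ranges overlap, and limma called none of the 6 at 2 h, where 1 had an unadjusted p under 0.05 with αMSH and 1 without it, while at 8 h 1 rose (Pdgfrb, 0.61) and 1 fell (Myh11). In volume depletion, where Tagln was low, the sum was 6.29 to 7.50. In lot 2 it was 6.01 to 6.67 at 8 h after mercuric chloride, 6.46 to 7.28 after cisplatin and 5.42 to 14.7 in sham rats, against 7.10 and 7.25 in normal rats. The high value was sham rat 1, in which Cnn1 stood at 8.42, against 0.492 and 0.608 in the other sham rats. Without Cnn1 the sums in sham rats were 6.26, 5.57 and 4.81, below the 6.73 and 6.65 of the normal rats. Tagln in that rat was 8.11, and without it the sham change of Tagln was 0.72. Cnn1 rose in both 2 h groups when that rat was left out, as given above. Skeletal muscle markers summed to 0.449 to 0.810 over 3 genes and adrenal cortex markers to 0.200 to 0.381 over 2 genes across all rats, and 1 skeletal muscle gene rose after cisplatin and 1 fell at 8 h of ischemia. Fibroblast markers (3 genes) summed to 15.1 to 19.1 at 8 h after mercuric chloride, where 1 rose, to 17.1 to 18.8 after cisplatin and to 11.3 to 14.1 in sham rats, against 11.4 and 12.8 in normal rats of lot 2. The mercuric chloride and cisplatin sums lay wholly above those of these normal rats, and the sham sums overlapped them. Ccn2 lay above normal in all 3 groups. In the mercuric chloride and cisplatin groups Dcn changed by 0.69 and 0.66, but Col1a1 by -0.16 and 0.10. Lum, at the floor in the normal rats of lot 1, changed by -0.15 and -0.07. In lot 1 the fibroblast sum came to 15.4 to 18.5 at 2 h of ischemia, against 15.0 to 19.6 in the normal rats of lot 1. The part of a change in cell makeup in the values of the 4 genes was not tested beyond these sums.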

How the data were processed

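Kidney RNA of 31 rats on 36 arrays was used, with 5 rats on 2 arrays each. The deposited values are in an unusual unit, read from the values: the log2 of a deposited value is a linear intensity relative to about the array median. Array medians of log2 were 0.999 to 1. The value 0.5 marks an empty spot, 0.969% of values, and was left out as missing. Per the labels, labelling was with biotin by the CodeLink standard protocol. The sources used here do not give the scanner software or the scaling.

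Each intensity was divided by its array's median, set to at least 0.1 and brought to log2, and the arrays of a rat were averaged. A fit with limma 3.58.1 (R 4.3.3; lmFit, eBayes; 21 residual degrees of freedom) used group and lot as terms over all rats. Probes had at least 3 rats above the floor, 2 measured rats in each group compared and 2/3 of all rats measured. Benjamini-Hochberg adjustment ran over the 9407 to 9468 tested probes of a comparison, with calls made where the adjusted p was below 0.05. Intervals are at 95%. The fit was tested on simulated data. The number of arrays limits the precision.

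Probe symbols came from the array annotation, updated through RefSeq's GRCr8 gene table: 7229 probes had 1 symbol, 21 several and 2661 none. The brightest probe stood for a gene. Promoter sequences came from RefSeq (GRCr8).

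The 4 genes and the 5 lists were chosen with earlier results of these data known. Per list and comparison, the text names up to 4 of the called genes that rose most and up to 4 that fell most, with a few standard genes, and for each of the 4 genes the 5 most alike. A replicate number says nothing of pairing here. Deviations of same-numbered rats of different groups correlated with a median of 0.015 (85 pairs, 21 over 0.1). For different numbers the median was -0.0085 (210 pairs, 49 over 0.1). Alternatives covered the floor, quantile normalization, the lot term, the filter, repeat arrays, a replicate block, sham rat 3, doubted arrays and each rat left out.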

Additional observations from a re-analysis of the deposited data

Results flagged for a closer look

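Ccn2 was below normal in every rat at 2 h after mercuric chloride and above it in every rat at 8 h, with mean changes of 0.63 at 8 h and -1.84 at 2 h on the log2 scale. Tagln was below normal in every rat at 8 h (-0.23, interval -0.62 to 0.17). At 2 h every rat lay above the normal mean (0.12, interval -0.24 to 0.47), but the rats overlapped the normal rats. The Tagln difference, 8 h minus 2 h, was -0.35 (interval -0.88 to 0.18). All these intervals reach to either side of no change, so a turn of direction is not shown for Tagln. The difference between 8 h and 2 h was not tested for Ccn2 or Tagln, because the genes were chosen with these values known. The 8 h rats lie in lot 2 and the 2 h rats in lot 1, and each was set against the normal rats of its own lot, so time and lot cannot be told apart. With no lot term the Ccn2 changes were -0.50 at 8 h and -1.08 at 2 h, and those of Tagln -0.62 and 0.38. A single rat far from the others was searched for in the 4 genes in the 3 groups of 4 or 5 rats and none was found. The normal rats of both lots were searched together. For Ccn1 (0.289 in lot 2, 0.948 in lot 1) and Ccn2 (3.28 and 12.1) the lots stood far apart. There the search could hardly show a lone normal rat. Groups of 3 rats were not searched.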

How the results depend on the processing

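Of 352 values of the 4 genes under other settings, 323 moved by less than the spread between rats, 29 moved further and 9 turned direction; of 188 values with a rat left out, 181 stayed within the spread, 7 did not and 7 turned direction. Direction turned without the lot term for Ccn1 in 4 groups and Ccn2 in 2. Without it the changes from normal were, for ischemia 2 h, 3.09 (Ccn1), 2.00 (Ccn2) and 1.36 (Tagln); with αMSH 2.29, 2.15 and 1.39; for ischemia 8 h 1.07, 0.42 and 0.36; for mercuric chloride 2 h 0.043, -1.08 and 0.38; for mercuric chloride 8 h -1.09, -0.50, -0.62 and, for Tnc, -0.54; for cisplatin -0.43, 0.073, 0.0053 and, for Tnc, 0.19; for sham -0.83, 0.58, 0.42 and, for Tnc, 0.041; and for volume depletion 0.40, 0.92 and -0.34. The probes called without it were 2145 (mercuric chloride 8 h), 508 (cisplatin), 250 (sham) and 41 (volume depletion), and the list genes 5 (cisplatin) and 3 (sham).

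With sham rat 3 as deposited, out of line with the probe names, the sham changes were 0.95 (Ccn1) and -0.67 (Tagln), and the misplaced values widened the spread of the whole fit. List genes called were then 9, 7 and 15 in ischemia 2 h, with αMSH and 8 h, and 0 in mercuric chloride 2 h and 8 h, cisplatin and sham. All probes called by limma were 300, 243, 1307, 63, 153, 5 and 0 in the same order and 2 in volume depletion. An unadjusted limma p under 0.05 was then found for 7, 6, 3 and 22 list genes in mercuric chloride 2 h and 8 h, cisplatin and sham, and for 2752 probes in sham. The arrays of ischemia 8 h rat 3, normal rat 1 and the first of volume depletion rat 1 correlated least with their groups. Their median correlations were 0.926, 0.976 and 0.968. Without these 3 arrays, list genes called were 12 and 14 in mercuric chloride 2 h and 8 h and 1 in volume depletion. All probes called were 1983 in mercuric chloride 8 h, 111 after cisplatin, 60 in sham and 47 in volume depletion.

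With single rats left out, Ccn1 in ischemia 8 h ranged over 0.0060 to 0.67, and Tnc over 0.13 to 0.85 after cisplatin, -0.59 to 0.13 in mercuric chloride 8 h and -0.011 to 0.71 in sham. All probes called ranged over 784 to 1283 with αMSH, 370 to 658 and 472 to 1067 in mercuric chloride 2 h and 8 h, 15 to 141 after cisplatin, 9 to 26 in sham and 7 to 20 in volume depletion, and list genes over 1 to 6, 2 to 9 and 1 to 4 in mercuric chloride 2 h and 8 h and cisplatin. The cause of these shifts was not tested.

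With the replicate number as a random block (correlation -0.018) the changes of the 4 genes moved by little, as for Ccn2 in sham rats (1.711), and no call count moved by over 1.5 times; the numbers do not pair the rats. With a floor of 0.25 some calls of faint list genes were lost. These were the rise of Ccn3 at 2 h of ischemia without αMSH and the fall of Lrp6 with it. At 8 h after mercuric chloride the fall of Thbs4 and the rise of Ltbp2 were lost. A mean over several probes gave no values, since each gene has 1 probe. Only 2 normal rats stand behind the groups of lot 2.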
